A study of Mus musculus with 4 samples.

Results

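The fatty acid elongases and desaturases examined here were 9 of the 25567 genes in the tables of a study of single nuclei from the mouse hippocampus. They were chosen by symbol and matched to the tables by Ensembl gene identifier: the 6 elongases Elovl1, Elovl2, Elovl4, Elovl5, Elovl6 and Elovl7, and the 3 desaturases Fads1, Fads2 and Fads3. Nuclei came from mice 8.5 months old that were wild type (WT) or carried Fasn-R1812W, a single amino acid change in the synthase Fasn, which makes palmitate. In each genotype 1 library was sorted with an antibody to NeuN, a protein of neuronal nuclei, and 1 with EdU, a thymidine analogue that marks nuclei that copied their DNA while it was present. Mice of the EdU+ groups received 100 mg/kg EdU 2 times per day over 3 days, and nuclei were isolated on day 4. The labels give neither the number of mice behind a library nor how the allele was made or whether mice carried 1 or 2 copies. There were thus 4 libraries and no replicate of any group, and the spread between mice was not measured.

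Elongases of the endoplasmic reticulum carry out the first and rate-limiting step that adds carbons from malonyl-CoA to a fatty acyl-CoA. Hsd17b12, the Hacd dehydratases and Tecr complete each round. Fads2 and Fads1 place double bonds close to the carboxyl end of the chain, and by alternating with Elovl5 and Elovl2 they turn dietary linoleic and alpha-linolenic acid into arachidonic acid and docosahexaenoic acid (DHA), both abundant in brain phospholipids. Saturated and monounsaturated very long chains, made with Elovl1 among others, are built into the sphingolipids of myelin.

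On mouse build GRCm38, in GENCODE M21, Elovl6 was at chr3:129532355-129638495 (plus strand) and Elovl1 at chr4:118428093-118432953 (plus). Elovl5 was at chr9:77917364-77984519 (plus) and Elovl4 at chr9:83778692-83806277 (minus). Elovl2 was at chr13:41182381-41220405 (minus) and Elovl7 at chr13:108214404-108285683 (plus). The desaturases form a cluster on chromosome 19, with Fads3 at chr19:10041569-10060110 (plus), Fads2 at chr19:10062765-10101746 (minus) and Fads1 at chr19:10182888-10196877 (plus). All 9 are protein coding. The last exon of Elovl1 overlaps that of Cdc20, a mitotic gene on the other strand, over 53 of the 2726 exon bases of Elovl1, so that reads of the pair are not told apart there if counting ignored strand. Cdc20 had reads in 11 of 348 nuclei of the EdU+ Fasn-R1812W library, 6 of which also held Elovl1, against 60 nuclei with Elovl1 in all. Exons of Elovl6 overlap those of the antisense gene Gm35986, which has no row in the tables.

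The 250 bases before the start site are shown for 3 members, since 2 of them (Elovl5 and Elovl6) were higher in both EdU+ libraries than in either NeuN+ library and the third (Fads3) was lower. The sequences are from RefSeq on GRCm38.p6, which held 8 of the 9 members; Fads1 had no entry. Each is written 5′ to 3′ on the strand of the gene, with Elovl5 at chr9:77917115-77917364, Elovl6 at chr3:129532136-129532385 and Fads3 at chr19:10041298-10041547, all on the plus strand. Capitals mark every match on either strand to the E-box CACGTG (bound by SREBP and ChREBP family factors among others), the CCAAT box read by NF-Y (CCAAT) and the GC box of Sp1 (GGGCGG).
Elovl5: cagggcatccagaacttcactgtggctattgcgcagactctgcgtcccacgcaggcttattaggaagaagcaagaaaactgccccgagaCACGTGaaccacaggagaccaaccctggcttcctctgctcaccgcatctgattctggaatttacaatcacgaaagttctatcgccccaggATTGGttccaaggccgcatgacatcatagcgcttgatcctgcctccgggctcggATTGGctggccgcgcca
Elovl6: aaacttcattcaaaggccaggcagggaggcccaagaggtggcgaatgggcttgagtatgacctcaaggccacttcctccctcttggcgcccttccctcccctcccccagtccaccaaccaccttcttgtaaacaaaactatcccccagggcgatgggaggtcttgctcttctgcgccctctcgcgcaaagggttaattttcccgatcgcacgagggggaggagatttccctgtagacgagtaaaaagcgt
Fads3: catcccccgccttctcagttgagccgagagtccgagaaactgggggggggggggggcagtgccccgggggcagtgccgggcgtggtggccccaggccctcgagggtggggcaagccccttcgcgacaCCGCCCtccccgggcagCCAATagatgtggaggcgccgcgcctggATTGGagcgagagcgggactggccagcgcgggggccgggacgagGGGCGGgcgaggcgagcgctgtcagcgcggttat
In Elovl5 the capitals are an E-box and, on the other strand, a pair of CCAAT boxes. Elovl6 held no match in this window, and Fads3 held CCAAT and GC boxes. Among 32851 mouse promoters of the same length, 6.02% held the E-box, 33.8% a CCAAT box and 32.7% a GC box. The matches are letters in a window and do not show binding.

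Depth and the number of nuclei differed between libraries, which bears on all results. A nucleus needed 1000 genes with a read and 50000 reads in total, and those that met this limit numbered 314 NeuN+ WT, 301 NeuN+ Fasn-R1812W, 348 EdU+ Fasn-R1812W and 167 EdU+ WT nuclei. The EdU+ WT library stood apart, with a median of 1298 genes per kept nucleus against 3006 to 4417 in the others, and only 5 of its nuclei passed a stricter limit of 2000 genes and 100000 reads. Levels are given in CPM, a gene's reads in all kept nuclei of the library per 1000000 reads of nuclear-encoded genes, with intervals at 95% that cover counting error only. Reads copied by PCR without molecular identifiers are not independent molecules, and 1 nucleus could hold most of the reads of a gene. Fasn, the gene that carries the altered codon, read 35.3 CPM in NeuN+ WT, 31.7 in NeuN+ Fasn-R1812W, 167 in EdU+ WT and 104 in EdU+ Fasn-R1812W. A level of reads cannot show a single changed codon, so this does not check the genotype labels. OPC-defining Pdgfra read at least 2662 CPM in the main EdU+ class of both libraries, and summed markers of oligodendrocyte precursors (12 genes) were 233 to 285 CPM in the NeuN+ libraries and 11850 to 14149 in the EdU+ libraries.

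Elovl5, which lengthens polyunsaturated chains made by Fads1 and Fads2, had the difference between gates with the smallest p among the members. Its level was 46.7 CPM (interval 45.1 to 48.3) in NeuN+ WT, 38.0 (36.5 to 39.4) in NeuN+ Fasn-R1812W, 130 (124 to 135) in EdU+ WT and 181 (179 to 184) in EdU+ Fasn-R1812W. Both EdU+ libraries were above both NeuN+ libraries, and no single nucleus held more than 18.6% of the reads. The log2 fold of EdU+ over NeuN+ was 1.83 with a standard error of 0.42 (3.56-fold), and the adjusted p of edgeR's quasi-likelihood test over 17364 genes was 0.0518, just above the threshold of 0.05. It passed that threshold in 7 of 12 alternative analyses, with adjusted p between 0.000671 (DESeq2) and 1 (strict nucleus filter). Without EdU+ WT the adjusted p was 0.00704 and without EdU+ Fasn-R1812W it was 0.0158, whereas without NeuN+ WT it was 0.0675 and without NeuN+ Fasn-R1812W it was 0.124.

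By the main test 0 of the 9 members were called in either direction. Over all 17364 genes, 6.66% were called in either direction (3.8% higher and 2.86% lower in EdU+) and 20.7% had an unadjusted p under 0.05, as did 1 of the members, Elovl5. DESeq2 called 1 member, also Elovl5. The design left 1 residual degree of freedom. In simulated counts over 17364 genes for this comparison, 35 of 50 genes set 4-fold higher and 9 of 50 set 4-fold lower in EdU+ were called. The altered genes were drawn above a minimum mean level, which Elovl2, Elovl7 and Fads2 did not reach. The simulation held no genotype effect and does not cover those members. The median log2 fold was 0.57 over the members and -0.16 over all genes tested. Since these were summed nuclei, fewer cells of a type and less RNA per cell cannot be told apart in the gate comparison.

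**Figure D1:**
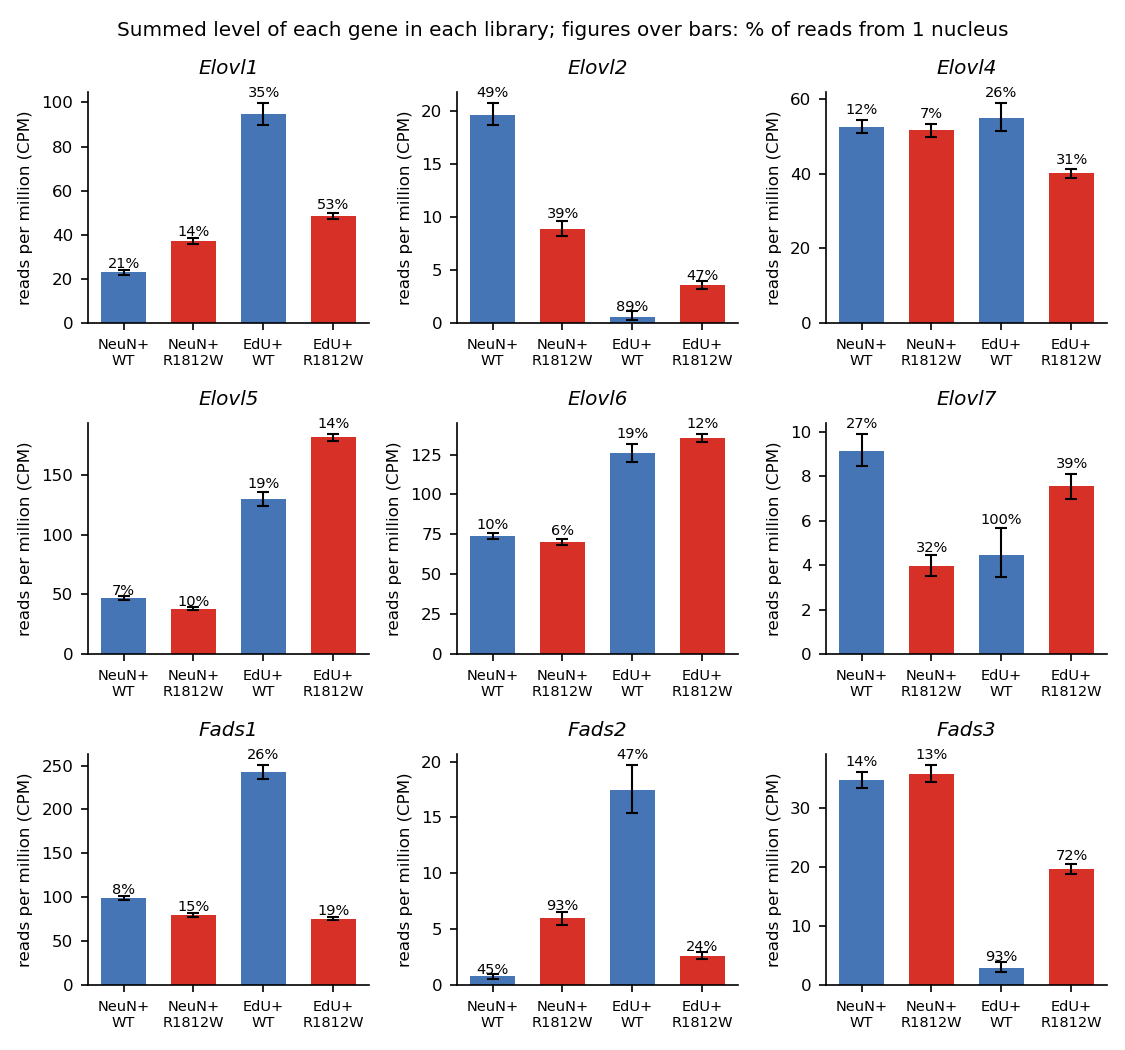
Bars give the summed level of each of the 9 genes in CPM (linear axis from 0) in the 4 libraries, with WT in blue and Fasn-R1812W in red. Lines are 95% Poisson intervals that cover counting error only, and the figure over each bar is the share of the reads that came from 1 nucleus. Elovl5 and Elovl6 stand higher in both EdU+ libraries, and in Fads3 1 nucleus held 93.2% and 72.2% of the reads of the EdU+ libraries.

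Elovl6, which extends palmitate to stearate and so takes over the product of Fasn, followed the same order. It read 73.9 CPM (71.8 to 75.9) in NeuN+ WT, 70.3 (68.3 to 72.3) in NeuN+ Fasn-R1812W, 126 (120 to 132) in EdU+ WT and 135 (133 to 138) in EdU+ Fasn-R1812W. The gates did not overlap and the 2 genotypes of a gate were close. The log2 fold between gates was 0.82 with a standard error of 0.37, which did not pass the edgeR test (adjusted p = 0.271).

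Elovl1, which makes saturated and monounsaturated chains of very long length, read 22.9 CPM (21.8 to 24.1) in NeuN+ WT, 37.0 (35.6 to 38.5) in NeuN+ Fasn-R1812W, 94.6 (89.7 to 99.6) in EdU+ WT and 48.7 (47.3 to 50.1) in EdU+ Fasn-R1812W. Both EdU+ values were the higher ones, but 53.3% of the reads in EdU+ Fasn-R1812W came from 1 nucleus, and in EdU+ WT the gene was read in 10 nuclei. The log2 fold was 1.19 with a standard error of 0.62 (edgeR adjusted p = 0.356).

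Elovl4, known for making the very long chains of retina, skin and brain, differed little between gates. It read 52.5 CPM (50.8 to 54.2) in NeuN+ WT, 51.6 (49.9 to 53.3) in NeuN+ Fasn-R1812W, 54.9 (51.3 to 58.8) in EdU+ WT and 40.04 (38.8 to 41.3) in EdU+ Fasn-R1812W. The gates overlapped, with a log2 fold of -0.18, a standard error of 0.52 and an edgeR adjusted p of 0.910.

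Elovl2, which carries out the long-chain steps toward DHA, was low in EdU+ nuclei. It read 19.7 CPM (18.7 to 20.8) in NeuN+ WT, 8.92 (8.23 to 9.65) in NeuN+ Fasn-R1812W, 0.599 (0.274 to 1.14) in EdU+ WT and 3.59 (3.21 to 3.99) in EdU+ Fasn-R1812W. Both EdU+ values lay below both NeuN+ values, yet the log2 fold of -3.16 had a standard error of 1.90 and did not pass the edgeR test (adjusted p = 0.425). In each library 1 nucleus held at least 39.0% of the reads.

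Elovl7, an elongase of saturated chains, was below 10 CPM in every library. It read 9.14 CPM (8.44 to 9.88) in NeuN+ WT, 3.95 (3.50 to 4.44) in NeuN+ Fasn-R1812W, 4.46 (3.45 to 5.66) in EdU+ WT and 7.53 (6.99 to 8.10) in EdU+ Fasn-R1812W. The gates overlapped, and all 67 reads in EdU+ WT came from 1 nucleus. The log2 fold was -0.08 with a standard error of 1.70 (edgeR adjusted p = 0.991).

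Fads1, the delta-5 desaturase, was the desaturase read in the most nuclei of every library. It read 98.7 CPM (96.4 to 101) in NeuN+ WT, 80.0 (77.9 to 82.1) in NeuN+ Fasn-R1812W, 242 (235 to 250) in EdU+ WT and 75.6 (73.8 to 77.4) in EdU+ Fasn-R1812W. Only EdU+ WT stood apart and the gates overlapped, with a log2 fold of 0.57, a standard error of 0.43 and an edgeR adjusted p of 0.537.

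Fads2, the delta-6 desaturase that opens the pathway, was read in 4 to 10 nuclei per library. It read 0.763 CPM (0.571 to 0.998) in NeuN+ WT, 5.96 (5.40 to 6.55) in NeuN+ Fasn-R1812W, 17.4 (15.4 to 19.7) in EdU+ WT and 2.62 (2.30 to 2.96) in EdU+ Fasn-R1812W. These values overlapped between gates, and 93.3% of the reads in NeuN+ Fasn-R1812W were from 1 nucleus. The log2 fold was 1.62 with a standard error of 2.71 (edgeR adjusted p = 0.822).

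Fads3, which desaturates sphingoid bases of ceramides, was the desaturase with its higher values in neurons. It read 34.7 CPM (33.4 to 36.1) in NeuN+ WT, 35.8 (34.5 to 37.3) in NeuN+ Fasn-R1812W, 2.93 (2.13 to 3.93) in EdU+ WT and 19.6 (18.8 to 20.5) in EdU+ Fasn-R1812W. The NeuN+ values were close to each other and above both EdU+ values, where 93.2% and 72.2% of the reads came from 1 nucleus. The log2 fold of -2.23 with a standard error of 1.07 did not pass the edgeR test (adjusted p = 0.304).

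In all, 5 of the 9 members had library levels that did not overlap between gates, 3 with EdU+ above (Elovl1, Elovl5 and Elovl6) and 2 with EdU+ below (Elovl2 and Fads3). This is set against 58.5% of the 17364 genes tested, 26.9% with EdU+ above and 31.6% below.

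**Figure D2:**
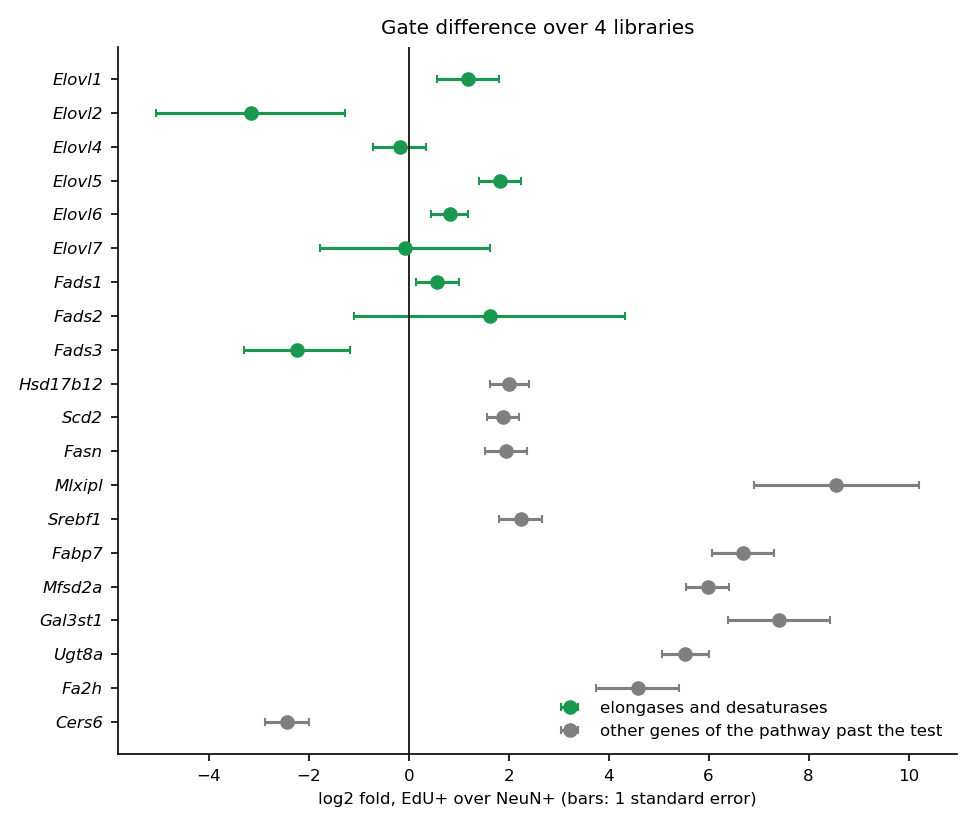
Points give the log2 fold of EdU+ over NeuN+ from the fit over 4 libraries, and bars 1 standard error. The 9 members are in green; in grey are the other genes of the pathway that passed the test and are named in the text. None of the members passed, with Elovl5 at 1.83, and of the grey genes only Cers6 lies below 0.

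Per kilobase of exon in GENCODE M21, the leading elongase differed between gates. The annotation behind the counts is not known, so this scaling is approximate. In NeuN+ libraries it was Elovl4, with 30.04% of the summed elongase level per kilobase in WT and 30.7% in Fasn-R1812W. In EdU+ libraries it was Elovl5, with 33.3% in WT and 48.4% in Fasn-R1812W. In EdU+ WT this lead was small, with Elovl1 at 31.4%. The NeuN+ lead of Elovl4 depended on the division by length. In CPM Elovl6 (73.9 and 70.3) was above Elovl4 (52.5 and 51.6) in NeuN+ WT and Fasn-R1812W. Elovl5 also led in CPM in the EdU+ libraries, narrowly in WT with 130 against 126 for Elovl6. Among desaturases Fads1 led everywhere, with 59.6% to 89.3% of the summed level per kilobase. The summed elongase level was 57.7 and 55.6 CPM per kilobase in NeuN+ WT and Fasn-R1812W, and 110 and 106 in EdU+ WT and Fasn-R1812W.

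The share of nuclei with a read gave another picture than the summed level, and depends on depth. Elovl5 was read in 24.8% of NeuN+ WT, 20.6% of NeuN+ Fasn-R1812W, 11.98% of EdU+ WT and 44.0% of EdU+ Fasn-R1812W nuclei. With every nucleus thinned to 50000 reads the shares were 18.2% (Clopper-Pearson interval 14.0 to 22.9), 16.6% (12.6 to 21.3), 11.98% (7.47 to 17.9) and 24.1% (19.7 to 29.0). The 2 EdU+ libraries thus lay on either side of the NeuN+ libraries, although both had the higher CPM, and their intervals overlapped those of at least 1 NeuN+ library.

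Elovl4 was read in more NeuN+ than EdU+ nuclei. After thinning, its share was 28.3% (23.4 to 33.7) in NeuN+ WT, 38.2% (32.7 to 44.0) in NeuN+ Fasn-R1812W, 7.78% (4.21 to 12.9) in EdU+ WT and 10.3% (7.35 to 14.0) in EdU+ Fasn-R1812W. Both NeuN+ shares were above both EdU+ shares, while the summed levels overlapped. The intervals take nuclei as the units and do not measure the spread between libraries or mice. How many of all genes had shares in this order was not computed. Fads3 had thinned shares of 16.6%, 18.6%, 1.20% and 2.01% in the same order. Thinned nuclei held a mean of 1.52 and 1.69 of the 9 members in NeuN+ WT and Fasn-R1812W, and 0.689 and 0.957 in EdU+ WT and Fasn-R1812W. Genes read per nucleus also differed between gates, with medians of 4395.5 and 4417 in NeuN+ and 1298 and 3006 in EdU+; its part in these shares was not tested.

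**Figure D3:**
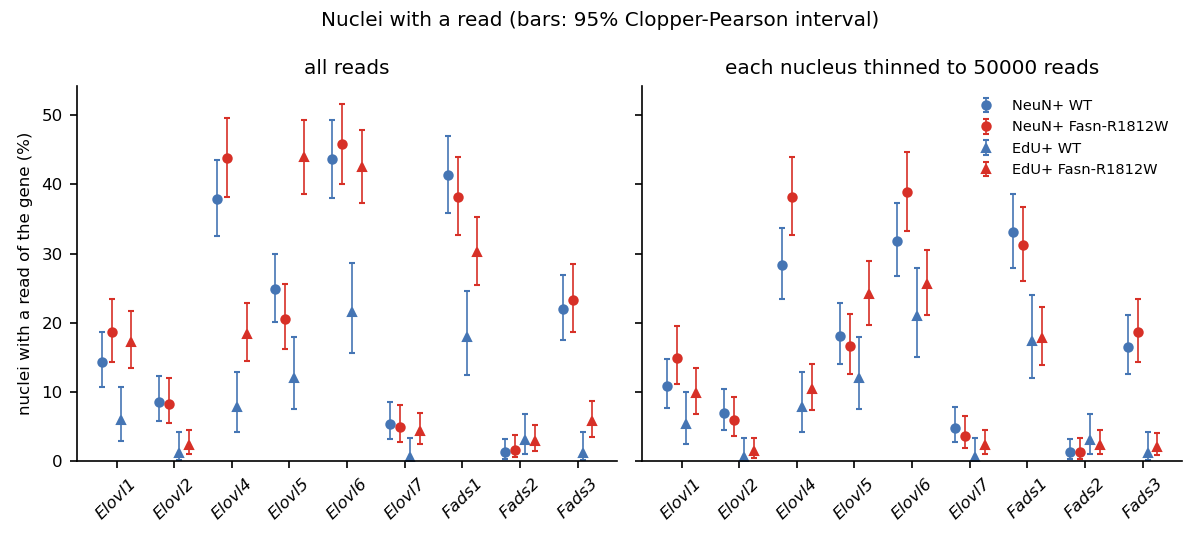
Points give the percent of kept nuclei with a read of each gene, from all reads (left) and after thinning every nucleus to 50000 reads (right), with circles for NeuN+, triangles for EdU+, blue for WT and red for Fasn-R1812W. Bars are 95% Clopper-Pearson intervals that cover counting error only. After thinning, Elovl4 and Fads3 stay in a higher share of NeuN+ nuclei, whereas the 2 EdU+ values of Elovl5 lie at 11.98% and 24.1%.

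Clusters of nuclei were named from marker genes, with at least 10 nuclei required in each library of a gate. NeuN+ nuclei gave granule neuron-like (133 WT and 79 Fasn-R1812W nuclei), CA1 pyramidal neuron-like (61 and 96), GABAergic interneuron-like (18 and 20) and subicular or entorhinal neuron-like classes (44 and 44). A pair of NeuN+ clusters stayed unnamed, cluster 4 led by Slc17a6 and cluster 5 led by Ndnf and Reln. EdU+ nuclei gave an oligodendrocyte precursor-like (OPC-like) class (138 and 232) and a neuroblast or neuronal progenitor-like class (21 and 40), which was led by Top2a and also held the astroglial gene Slc1a3 at 1066 and 1836 CPM. Defining markers were present, with Pdgfra at 2849 and 2662 CPM in OPC-like nuclei, Prox1 at 520 and 391 in granule neuron-like nuclei and Gad1 at 1335 and 1265 in interneuron-like nuclei. Values by class are a description of 1 library per genotype, without a test.

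In OPC-like nuclei Elovl5 read 157 CPM in WT and 212 in Fasn-R1812W. In the named neuronal classes it read 44.7 and 64.3 in granule neuron-like, 45.9 and 42.4 in CA1-like, 70.5 and 25.0 in interneuron-like and 9.44 and 11.0 in subicular or entorhinal-like nuclei. Under the main settings every OPC-like value was above every value of these named neuronal classes, and the lowest of them was the same in both genotypes. In unnamed cluster 5, which held Gad1 at 893 and 1782 CPM, Elovl5 read 124 and 32.5. In neuroblast-like nuclei it read 17.1 and 294, where the WT value came from 1 nucleus. With classes by marker score the mean of both libraries was 122 in OPC-like and 466 in mossy neuron-like nuclei. The log2 ratio of those classes had a standard deviation of 6.06 between libraries. With the relaxed filter of 300 genes and 20000 reads, which kept 262 and 256 OPC-like nuclei, Elovl5 read 211 in WT and 210 in Fasn-R1812W.

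Elovl6 was spread over more classes. It read 122 and 180 CPM in OPC-like, 169 and 221 in neuroblast-like, 108 and 139 in interneuron-like and 107 and 119 in subicular or entorhinal-like nuclei of WT and Fasn-R1812W. In CA1-like nuclei it read 121 and 56.4, and in granule neuron-like nuclei 36.1 and 23.7. The granule neuron-like values were the lowest in both genotypes, whereas with the relaxed filter interneuron-like WT nuclei (47.8) were about level with granule neuron-like ones (49.2). That filter gave 11 interneuron-like WT nuclei. It also set apart 69 WT nuclei named ependymal-like, whose granule neuron markers scored nearly as high, and these read 19.3. Under the main settings both OPC-like and both neuroblast-like values were above those of CA1-like and subicular or entorhinal-like nuclei. The margin was small for OPC-like WT against CA1-like WT. At resolution 2 the OPC-like WT value of 88.5 and the neuroblast-like Fasn-R1812W value of 48.2 lay among or below them. The latter was also 48.2 with 10 components and 60.3 with 30, against 111 and 118 in subicular or entorhinal-like Fasn-R1812W nuclei. With 30 components OPC-like WT nuclei read 124 against 146 in CA1-like WT nuclei. In neuroblast-like nuclei 97.3% of the WT and 73.7% of the Fasn-R1812W reads came from 1 nucleus.

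Elovl4 read 92.4 and 85.8 CPM in interneuron-like nuclei of WT and Fasn-R1812W, 57.6 and 63.0 in CA1-like, 42.6 and 62.4 in subicular or entorhinal-like and 49.9 and 58.3 in OPC-like nuclei. In granule neuron-like nuclei it read 42.7 and 18.9, the lower value being the lowest of these. In neuroblast-like nuclei the values were 107 and 37.8, with 93.5% and 98.6% of reads from 1 nucleus.

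Elovl1 was higher in OPC-like nuclei (92.0 and 65.3 CPM in WT and Fasn-R1812W) than in each named neuronal class, where it was 14.3 to 46.6. This turned in Fasn-R1812W for subicular or entorhinal-like nuclei, which read 130 against 64.0 with the relaxed filter. They read 88.5 against 71.2 at resolution 2 and 88.5 against 64.0 with 10 components. With classes by marker score the mean of both OPC-like values was 15.5. Most Elovl1 reads of the EdU+ Fasn-R1812W library came from 1 nucleus, and the order of classes without it was not tested. Elovl2 was close to absent from OPC-like nuclei, with 1 read in WT (0.0838 CPM) and 4 in Fasn-R1812W (0.0682 CPM). In neurons it was between 0.351 CPM in subicular or entorhinal-like nuclei of Fasn-R1812W and 22.7 in interneuron-like nuclei of WT. Its highest value, 94.8 CPM in WT nuclei of unnamed cluster 5, came from 1 nucleus. Astroglial Slc1a3 was at 877 CPM in those same WT nuclei and at 20.5 in the Fasn-R1812W nuclei of that cluster, where Elovl2 was at 4.95; its part in the difference was not tested.

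Fads1 read 266 and 103 CPM in OPC-like nuclei of WT and Fasn-R1812W, 118 and 92.0 in granule neuron-like, 94.98 and 50.5 in subicular or entorhinal-like, 83.2 and 63.6 in interneuron-like and 28.5 and 47.0 in CA1-like nuclei. The CA1-like values were the lowest of these in both genotypes. Fads3 read 47.5 and 60.4 in subicular or entorhinal-like, 38.5 and 31.2 in granule neuron-like and 26.9 and 29.0 in CA1-like nuclei, but 4.72 and 1.56 in interneuron-like nuclei. Interneuron-like nuclei thus lay below the 3 excitatory classes in both genotypes, but not with classes by marker score, where they read 98.5 in WT against 7.86 in CA1-like and 26.7 in granule neuron-like nuclei. Nuclei of unnamed cluster 5, which held Gad1 at 893 and 1782 CPM, are outside that class and read Fads3 at 31.0 and 45.6. In OPC-like nuclei it read 3.69 and 29.5, with 93.2% and 77.6% of reads from 1 nucleus.

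Microglia-like and leukocyte-like nuclei were too few in EdU+ WT (3 and 5) under the main filter. Under the relaxed filter 28 WT and 33 Fasn-R1812W microglia-like nuclei held Elovl1 at 50.1 and 55.8 CPM and Fads1 at 32.5 and 56.4. In the same microglia-like nuclei 3 other members were low: Elovl5 read 0.996 and 9.61, Elovl6 0 and 3.20, and Elovl4 0 and 0.687. In leukocyte-like nuclei (20 and 47) Elovl5 read 21.4 and 101 and Elovl1 207 and 15.6. That class pooled a cluster led by S100a9 and S100a8 (14 WT and 7 Fasn-R1812W nuclei) with another led by H2-Aa and Lyz2 (6 and 40). Its values thus compare unlike mixtures of cells between genotypes, and the part of this in the differences was not tested.

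**Figure D4:**
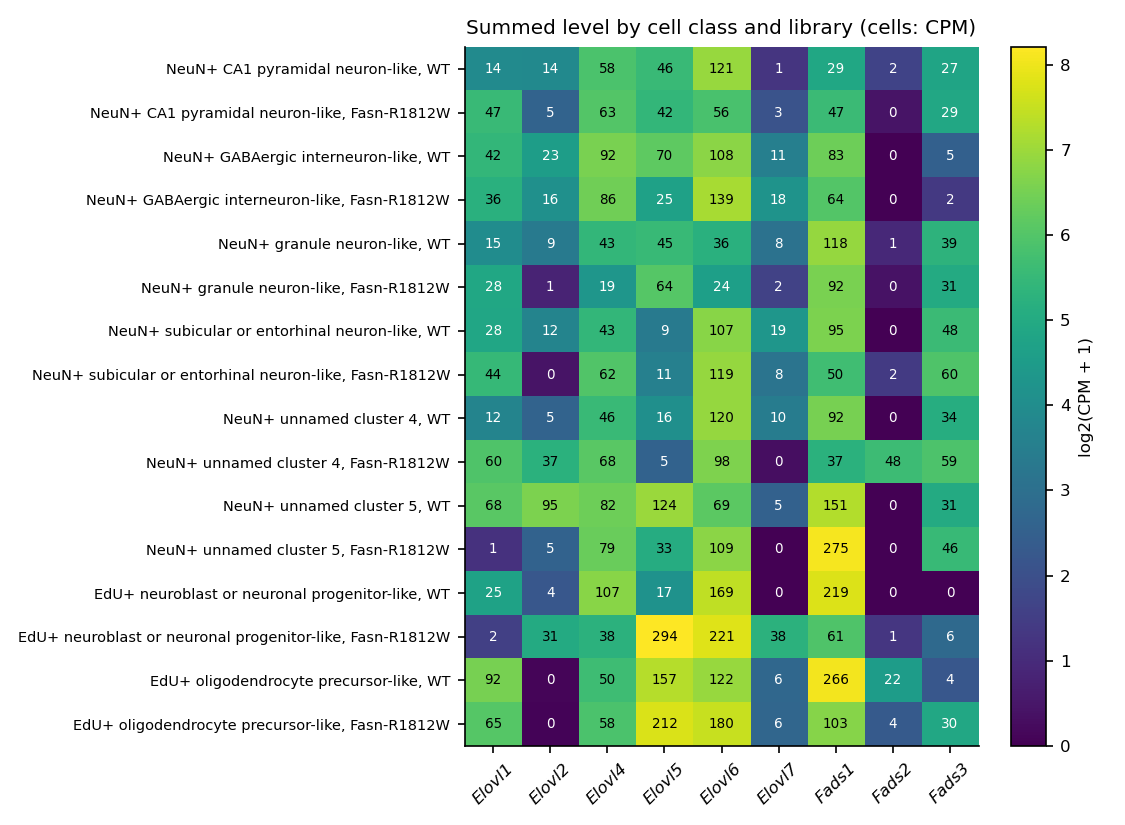
Each row is 1 class in 1 library and each column 1 gene; colour gives log2(CPM + 1) and the printed figure the CPM. Classes with fewer than 10 nuclei in a library are left out. Elovl5 is at 157 and 212 CPM in the OPC-like rows and at most 70.5 in the rows of named neuronal classes, and Fads3 is below 5 in both interneuron-like rows, which did not hold with classes by marker score.

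The class with the highest mean of a member changed with how nuclei were filtered or clustered for 8 of the 9 members, Fads2 being the exception. At a finer resolution, a committed oligodendrocyte precursor-like class of 10 WT and 12 Fasn-R1812W nuclei held Elovl5 at 128 and 873 CPM, against 109 and 172 in OPC-like nuclei, so that it stood apart in the Fasn-R1812W library alone.

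Genes whose levels most resembled those of a member, by Pearson correlation of log2(CPM + 1) over 16 class-by-library sums, were searched among 9660 genes. Taking the nearest gene of each member, the highest correlations were with Slc7a1, an amino acid transporter, for Elovl4 (r = 0.91) and Camk4, a calcium-dependent kinase of neurons, for Fads3 (r = 0.91). Ak3 for Elovl1 (r = 0.89) and Dock1 for Elovl5 (r = 0.87) came after these. Sums of 1 library share its depth, and of 27 such genes 10 stayed when the unnamed clusters were pooled and 7 when they were left out. Slc7a1 stayed in both, Camk4 only in the first, and Ak3 and Dock1 in neither.

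Genotypes could not be tested within a gate. The log2 ratio of Fasn-R1812W over WT, after adding 1 CPM, was taken for genes that reached 10 CPM and were detected in 10% of nuclei or more, in either of the paired libraries. In NeuN+ nuclei 6 members passed these limits (Elovl1, Elovl4, Elovl5, Elovl6, Fads1 and Fads3) and 0 were 2-fold apart, against 6.2% of 10842 genes (3.17% higher and 3.03% lower in Fasn-R1812W). Their ratios ran from -0.30 for Fads1 to 0.67 for Elovl1. In EdU+ nuclei 5 passed (all of those but Fads3) and 1 was 2-fold apart, against 25.4% of 9175 genes (17.4% higher and 8.01% lower in Fasn-R1812W).

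That member was Fads1, at 242 CPM in EdU+ WT and 75.6 in EdU+ Fasn-R1812W, a log2 ratio of -1.67. With the relaxed filter the levels were 134 and 75.2 and the ratio -0.82, under 2-fold. With the strict filter, which left 5 WT nuclei without a Fads1 read, no ratio can be read. Its thinned share of nuclei was 17.4% (11.9 to 24.0) in WT and 17.8% (13.9 to 22.2) in Fasn-R1812W. Summed markers of leukocytes (13 genes) were 780 CPM in EdU+ WT, with 5 genes at 0, and 4840 in EdU+ Fasn-R1812W, and those of microglia (11 genes) 1525 and 4204. Within OPC-like nuclei alone the Fads1 levels were 266 and 103 CPM, and 148 and 105 with the relaxed filter. Elovl6 was close between genotypes in both gates, with ratios of -0.07 in NeuN+ and 0.10 in EdU+ nuclei, as was Elovl4 in NeuN+ nuclei with -0.03.

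In the fit over both gates, 0 of the 9 members and 0.00576% of 17364 genes (1 gene) were called between genotypes by edgeR. At an unadjusted p under 0.05 there were 275 genes and none of the members. Fads1 had the lowest p among them (log2 -0.97, unadjusted p = 0.0623, adjusted p = 1, edgeR), and DESeq2 called 53 genes higher, 11 lower and 0 members.

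The other genes of the pathway were taken from 7 lists of 69 genes, of which 66 were tested between gates. By edgeR's test 10 were higher and 1 was lower in EdU+, where 3.8% of all genes tested were higher and 2.86% lower, with a median log2 fold of 0.35 over the lists against -0.16 over all genes. The lists are described by counts only. The share of all genes tested with a log2 fold above 0 was not computed, so counts by sign are not a result about the lists.

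Among partners of the elongation cycle 1 of 7 tested genes rose and 0 fell. It was Hsd17b12, the ketoacyl-CoA reductase of elongation, at 52.2 and 70.8 CPM in NeuN+ WT and Fasn-R1812W and 312 and 201 in EdU+ WT and Fasn-R1812W (log2 2.01, adjusted p = 0.0298). The median log2 fold of that list was -0.26, with 3 of 7 above 0. Among other desaturases and their electron donors 1 of 10 rose, Scd2, the stearoyl-CoA desaturase of brain, from 251 and 264 CPM in NeuN+ to 1180 and 802 in EdU+ libraries (log2 1.88, adjusted p = 0.0208). Of 9 genes that supply malonyl-CoA and palmitate 1 rose, Fasn itself, with a log2 fold of 1.95 (adjusted p = 0.0430) that passed in 7 of 12 alternatives.

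Of 13 genes of transcriptional control 2 rose and 0 fell. Srebf1, which encodes the SREBP-1 factor that drives fatty acid synthesis, read 31.5 and 22.4 CPM in NeuN+ and 161 and 103 in EdU+ libraries (log2 2.24, adjusted p = 0.0285). Mlxipl, which encodes the glucose-responsive factor ChREBP, was near 0 in NeuN+ libraries (0.0720 and 0.0427 CPM) and read 11.8 and 43.2 in EdU+ libraries (adjusted p = 0.0299). Of 8 peroxisomal genes that shorten chains to DHA, 0 passed. All 8 had a log2 fold above 0, with a median of 0.24 against -0.16 over all genes tested, and the share of all genes above 0 was not computed.

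Of 10 genes of fatty acid transport and esterification 2 rose. Mfsd2a, the transporter of lysophosphatidylcholine that carries DHA, read 3.86 and 4.46 CPM in NeuN+ and 303 and 237 in EdU+ libraries (log2 5.98, adjusted p = 0.00180). Fabp7, a brain fatty acid binding protein of glia and progenitors, read 2.07 and 0.727 in NeuN+ and 164 and 104 in EdU+ libraries (log2 6.69, adjusted p = 0.00330). The EdU+ gate was mostly OPC-like, and these genes rose with the precursor markers given above; the part of cell type in their folds was not tested.

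Of 9 genes of ceramide and galactolipid synthesis 3 rose and 1 fell. The 3 were the enzymes of galactolipid synthesis Ugt8a (log2 5.54, adjusted p = 0.00269), Gal3st1 (log2 7.41, adjusted p = 0.00962) and Fa2h (log2 4.58, adjusted p = 0.0239), all known from myelin. Cers6, a ceramide synthase that prefers palmitoyl-CoA, fell from 150 and 125 CPM in NeuN+ to 23.9 and 28.0 in EdU+ libraries (log2 -2.43, adjusted p = 0.0235). These p are from edgeR's quasi-likelihood test with Benjamini-Hochberg adjustment.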

How the data were processed

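The data were Smart-seq2 reads of single nuclei in 4 libraries, 1 per gate and genotype, with 384 wells each where 382 nuclei were stated. The authors deposited raw counts of reads per gene and well, not normalized; total counts in NeuN+ nuclei were 71221156 (WT) and 72468235 (Fasn-R1812W), and in EdU+ nuclei 36368990 (WT) and 96597804 (Fasn-R1812W). The submitters' processing notes name Trimmomatic 0.36 for trimming, STAR 2.5.3a for alignment and build GRCm38.p5. Which program counted them, with which annotation and strand setting, is not given in the sources used here. Well names were shared by all libraries, but 0 wells were identical. Embryonic nuclei of the series were not analysed here.

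Symbols were matched for 25395 genes and positions taken from GENCODE M21. Counts of kept nuclei were summed per library. The gate and genotype differences were fitted together with edgeR 4.0.16 (TMM, filterByExpr, quasi-likelihood, R 4.3.3) at an adjusted p of 0.05; standard errors are the log2 fold over the square root of F. DESeq2 1.42.0 was an alternative. The replicate is the library, and the p-values measure only the spread left between 4 libraries. The fit was tested on simulated data.

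Clusters were made separately for each gate in scanpy 1.11.5 and igraph 0.11.9 (log-normalized counts, 2000 variable genes, 20 components, 15 neighbours, resolution 1), leaving out the members, pathway, sex-linked and mitochondrial genes. The normalization and the choice of variable genes were settled after several combinations had been tried and their clusters seen, by how well markers separated and libraries mixed, without looking at the members. The naming rule (at least 3 markers 2-fold over the median cluster) was also set after clusters were seen, and the unnamed clusters were kept apart only after a first table of class levels. No doublet caller was run; an alternative dropped the 5% of nuclei highest in genes read. Intervals are exact Poisson for counts and Clopper-Pearson for shares, at 95%.

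The members, gene lists and tests were chosen with earlier results of these data known. All 9 members are named, along with Fasn and up to 4 genes of each pathway list past the gate test, by size of fold, and the nearest 3 genes by correlation for each member, of which a few are printed. Microglia-like and leukocyte-like values, and the nuclei at finer resolution, come from the alternatives. Alternatives covered other tools, nucleus and gene filters, thinning, priors, scaling, clustering and leaving out each library.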

Additional observations from a re-analysis of the deposited data

Results flagged for a closer look

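For 6 members the log2 ratio of Fasn-R1812W over WT pointed one way in NeuN+ and the other way in EdU+ nuclei, with 1 library per group, and none of these differences was tested. The share of all genes with opposite signs was not computed, so the count is not a result about the members. Elovl6 was counted although its ratios were only -0.07 and 0.10. The EdU+ ratio minus the NeuN+ ratio was -1.61 for Elovl1, 2.58 for Elovl2, 0.77 for Elovl5, 0.17 for Elovl6, 1.68 for Elovl7 and -4.33 for Fads2. For Elovl1 the EdU+ ratio was 0.03 with the relaxed nucleus filter, which leaves both gates on the same side of 0. For Fads2 the NeuN+ ratio was -0.02 without the nucleus with the most reads in each library, against 1.98 with it. Elovl2, Elovl7 and Fads2 did not pass the limits on level and share of nuclei in either gate.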

How the results depend on the processing

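No paired analysis was possible because each group holds 1 library, so that no replicate numbers pair samples across groups. Under the main settings 659 genes were called higher and 497 lower in EdU+, and 0 members. With DESeq2 these were 1828, 1802 and 1; with the relaxed nucleus filter 1109, 826 and 1; with no nucleus filter 1092, 801 and 1; and with each nucleus thinned to 50000 reads 1186, 1126 and 1. With the strict nucleus filter 80 genes were higher and 30 lower. The fit of gate alone called 1 member. Leaving out 1 library, which sets the lone library of a gate to vary like the others, gave 663 to 1835 genes higher, 401 to 2557 lower and 0 to 5 members. The 5, without EdU+ Fasn-R1812W, were Elovl1, Elovl5 and Fads1 (higher) and Elovl2 and Fads3 (lower); the 1 in the other analyses was Elovl5.

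Signs of log2 folds between gates held for Elovl1, Elovl2, Elovl5, Elovl6 and Fads3 in all 12 alternatives. They turned on leaving out 1 library for Elovl4 (-0.38 to 0.010, above 0 without EdU+ Fasn-R1812W), Elovl7 (-0.66 to 0.56, above 0 without NeuN+ WT and, at 0.19, without EdU+ WT), Fads1 (-0.25 to 1.37, below 0 without EdU+ WT) and Fads2 (-0.36 to 3.64, below 0 without EdU+ WT). With the strict filter Fads1 was at -3.81 and Fads2 at -2.14. The cause was not tested.

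Between genotypes over both gates, 1 gene was called higher and 0 lower. DESeq2 called 53 and 11; without a filter on low counts 3 were higher; with the strict filter 2 were higher and 1 lower; with thinning 3 were higher; with no nucleus filter, and without the 5% of nuclei highest in genes read, 0 were higher. No member was called in any of these. Signs turned for Elovl1 (0.37 with the relaxed filter, 0.39 with no nucleus filter, 0.0049 without the 5% of nuclei and 0.31 with thinning), Elovl5 (-0.082 relaxed, -0.060 no filter), Elovl6 (-0.029 relaxed, -0.0064 no filter, -0.52 strict), Elovl7 (0.0027 relaxed, 0.047 no filter, 0.50 thinned, 1.32 strict), Fads1 (3.48 strict) and Fads2 (-0.51 thinned).

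Within gates, thinning changed the genes at least 2-fold higher or lower in Fasn-R1812W from 344 and 328 to 199 and 149 in NeuN+, and from 1592 and 735 to 754 and 354 in EdU+ nuclei; the strict filter gave 5557 and 2555 in EdU+, with 5 WT nuclei. There the Fads1 ratio became 6.30, because those 5 nuclei held no Fads1 read.

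The log2 ratio of the class with the highest mean level over the next class fell below 0 as follows. With the relaxed filter it was -1.02 for Elovl1, -0.44 for Elovl2 and -1.43 for Elovl6. With classes by marker score it was -3.94 for Elovl1, -3.09 for Elovl2, -0.58 for Elovl4, -1.92 for Elovl5, -0.84 for Elovl6, -4.21 for Elovl7, -0.65 for Fads1 and -0.62 for Fads3. At resolution 2 it was -0.76 for Elovl2, -0.097 for Elovl4, -1.82 for Elovl5, -0.28 for Elovl6, -0.014 for Elovl7, -0.017 for Fads1 and -0.17 for Fads3. With 10 components it was -0.25 for Elovl2, -0.65 for Elovl6 and -0.24 for Fads3, and with 30 components -0.59 for Elovl6. With thinning it was -0.0062 for Elovl2, -0.81 for Elovl6, -0.059 for Fads1 and -0.14 for Fads3. No class order of these members is therefore drawn from the highest class. The likeness genes were compared under settings chosen after seeing the data. The shallow EdU+ WT library limits every EdU+ value, and a read in few nuclei limits Elovl2, Elovl7 and Fads2.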
